A study of Mus musculus with 16 samples.

Results

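Restoring Smad4 in tumour cells of the pancreas, liver and lungs left 1139 sites of open chromatin with a higher signal in all 3 organs. These raised peaks were chosen by their measured values. A nuclear peak entered if its mean normalised count over the 16 samples was at least 40, and if in each organ the mean of the Smad4 on samples was at least 1.43 times the mean of the Smad4 off samples. They made up 1139 of the 82067 peaks with sufficient signal (1.39%) and of 136630 nuclear peaks in all. The same rule turned around, with a ratio of at most 0.699 in every organ, gave 1012 lowered peaks, which serve below as the mirror set. Since the rule used the Smad4 on and off values of every sample, ratios between them are given as a description and without a test.

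The cells came from KC-shSmad4 pancreatic ductal adenocarcinoma (PDAC) lines, made from mice of mixed C57BL/6J;129 background with, among other alleles, Ptf1a-Cre, Rosa26 LSL-rtTA3-IRES-mKate2 and a doxycycline-inducible, GFP-linked shRNA against Smad4 at Col1a1. Ptf1a-Cre restricts the alleles to the pancreatic lineage, and every group carries all of them, so that the groups are set apart by organ and doxycycline. The labels do not say which line each mouse received. Cells were transplanted into female athymic nude mice (Foxn1nu) of 6 to 8 weeks, which lack mature T cells, through the pancreas (Panc), the spleen (Liv, with the spleen then removed) or the tail vein (Lung). Smad4 off mice stayed on doxycycline chow, and Smad4 on mice were switched to regular chow at 4 weeks for the pancreas, 5 weeks for the liver and 6 weeks for the lungs and sampled after 14 days. Open chromatin was read by ATAC-seq, in which a transposase cuts accessible DNA, on sorted mKate2+ cells of separate mice. The groups held 3 Panc_OFF, 3 Panc_ON, 2 Liv_OFF, 2 Liv_ON, 3 Lung_OFF and 3 Lung_ON samples. Reads in peaks ranged from 22.5 to 37.5 M per sample. The shRNA acts on messenger RNA, so no peak checks the Smad4 labels.

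SMAD4 is the shared partner of the receptor-activated SMAD proteins, which carry TGF-beta, activin and BMP signals from cell surface receptors to the nucleus. SMAD complexes bind short DNA elements weakly and usually act beside other transcription factors, among them the AP-1 dimers of FOS and JUN proteins and the RUNX factors. In pancreatic cancer SMAD4 is a frequently lost tumour suppressor, and many TGF-beta responsive enhancers lie far from the genes they act on.

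The central 200 bases of 6 raised peaks are printed here, 4 distal sites with large ratios and 2 promoters, because they show the short strings that are counted across all raised peaks below. They are the plus strand of mm10 (GRCm38), with capitals for 3 strings on either strand: TGAGTCA (AP-1), TGTGGT (RUNX) and CAGAC (the core SMAD element).
Efnb2 desert, chr8:8190761-8190960: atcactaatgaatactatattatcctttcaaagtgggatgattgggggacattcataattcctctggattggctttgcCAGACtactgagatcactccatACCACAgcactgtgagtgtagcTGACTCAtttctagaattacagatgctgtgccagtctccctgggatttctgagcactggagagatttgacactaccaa
Pappa desert, chr4:64952796-64952995: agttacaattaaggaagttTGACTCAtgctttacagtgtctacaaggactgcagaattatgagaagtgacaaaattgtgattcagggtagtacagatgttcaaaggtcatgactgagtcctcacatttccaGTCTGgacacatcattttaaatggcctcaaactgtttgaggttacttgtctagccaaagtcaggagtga
Pgrmc2 desert, chr3:41213566-41213765: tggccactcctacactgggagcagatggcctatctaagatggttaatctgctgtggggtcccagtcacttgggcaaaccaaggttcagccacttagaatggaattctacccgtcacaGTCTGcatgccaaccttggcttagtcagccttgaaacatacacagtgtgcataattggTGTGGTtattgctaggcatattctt
Evc2 upstream region, chr5:37437525-37437724: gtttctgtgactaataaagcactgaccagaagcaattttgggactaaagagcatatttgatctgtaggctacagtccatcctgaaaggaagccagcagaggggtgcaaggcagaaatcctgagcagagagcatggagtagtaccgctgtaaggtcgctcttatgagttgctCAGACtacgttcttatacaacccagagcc
Hs3st3a1 promoter, chr11:64435396-64435595: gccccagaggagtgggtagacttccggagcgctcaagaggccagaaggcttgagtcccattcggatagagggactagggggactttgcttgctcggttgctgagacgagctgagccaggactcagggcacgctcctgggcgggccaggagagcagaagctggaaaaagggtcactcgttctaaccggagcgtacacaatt
Mustn1 promoter, chr14:30877929-30878128: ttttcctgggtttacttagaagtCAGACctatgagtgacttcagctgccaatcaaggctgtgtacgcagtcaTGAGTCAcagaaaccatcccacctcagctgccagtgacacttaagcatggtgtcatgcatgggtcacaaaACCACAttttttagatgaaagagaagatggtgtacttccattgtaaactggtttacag
The Efnb2 and Mustn1 windows held all 3 strings. The Pappa window held AP-1 and SMAD letters, the Pgrmc2 window RUNX and SMAD letters, the Evc2 window a SMAD element alone, and the Hs3st3a1 window none of them. A match is a match of letters only and says nothing of a bound factor. The labels name the nearest start site. Distances to it were measured without regard to strand, so the word upstream in the Evc2 label is not shown.

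The raised peaks opened from different levels in the 3 organs. The median normalised count over the 1139 peaks was 68.3, 77.7 and 79.6 in the Panc_OFF samples and 125, 126 and 146 in the Panc_ON samples. In the liver it was 17.3 and 18.1 in Liv_OFF, and 53.6 and 32.5 in Liv_ON. In the lungs it was 71.8, 34.8 and 53.4 in Lung_OFF, and 109, 97.8 and 83.0 in Lung_ON. Sample medians did not overlap between Smad4 states in any organ, as the rule makes likely, and the Smad4 on liver samples stayed below every pancreas sample. The mean share of all peak signal that fell in raised peaks was 0.414% ± 0.0304 (SD, n = 3) in Panc_OFF and 0.717% ± 0.0371 (n = 3) in Panc_ON. It was 0.101% ± 0.0157 (n = 2) in Liv_OFF and 0.236% ± 0.0611 (n = 2) in Liv_ON, and 0.297% ± 0.0912 (n = 3) in Lung_OFF and 0.508% ± 0.0685 (n = 3) in Lung_ON. In bulk samples, more cells with a site open and a wider opening in each cell cannot be told apart.

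**Figure D1:**
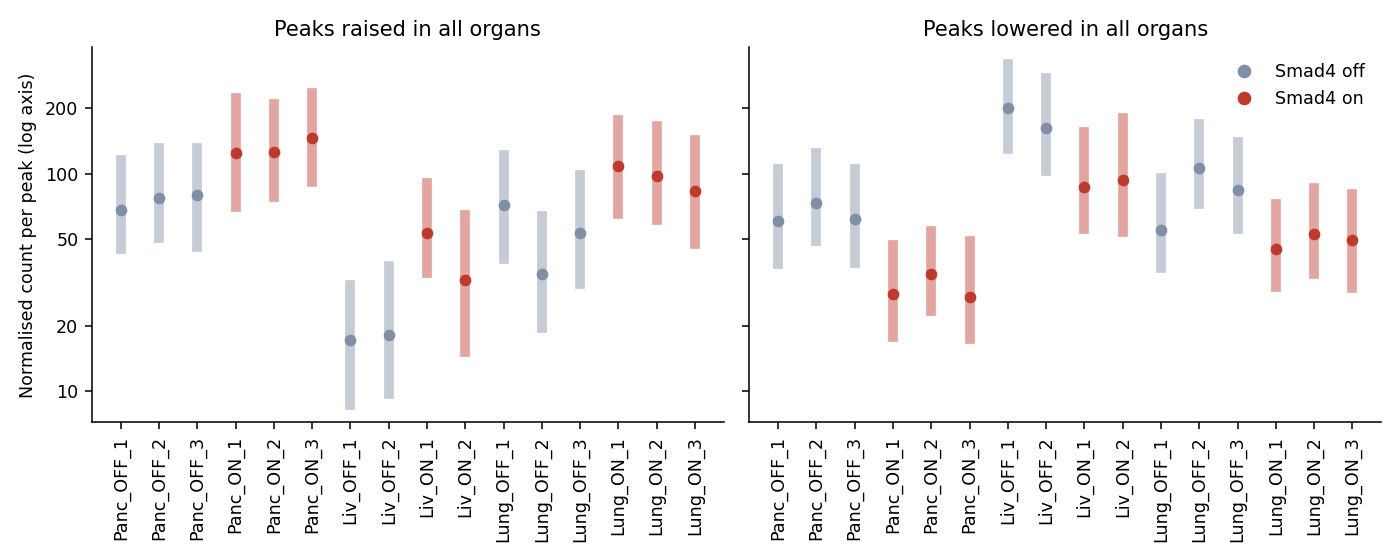
Median (point) and interquartile range (bar) of the normalised count over the 1139 raised peaks (left) and the 1012 lowered peaks (right) in each of 16 samples, on a log axis, with Smad4 off in grey and Smad4 on in red. The raised peaks are lowest in Liv_OFF, with medians of 17.3 and 18.1, and the lowered peaks are highest in Liv_OFF.

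The ratio of Smad4 on to Smad4 off was largest in the liver at most sites. Its median over the raised peaks was 1.71 in the pancreas (interquartile range 1.55 to 1.96), 2.30 in the liver (1.82 to 2.98) and 1.67 in the lungs (1.53 to 1.94). The liver gave the largest of the 3 ratios at 806 peaks (70.8%), the pancreas at 178 and the lungs at 155. At least a 2-fold ratio was reached by 261 raised peaks (22.9%) in pancreas tumours, 740 (65.0%) in liver metastases and 235 (20.6%) in lung metastases, and by 43 in all of them. Over all peaks with sufficient signal it was reached by 3.08%, 7.97% and 0.836% in these organs, so the liver share was the highest there as well. The liver had the lowest starting level over these peaks and 2 samples in each group. The part of either in its larger ratios was not tested. The 1139 peaks are not independent replicates and share the libraries. Across them, the Spearman correlation of the ratios was 0.12 between pancreas and liver, 0.05 between pancreas and lungs and 0.15 between liver and lungs. The rule kept only peaks whose ratios all reached its limit, which restricts these correlations. None was computed over all peaks with sufficient signal, so they do not show whether the organs respond with related strength.

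**Figure D2:**
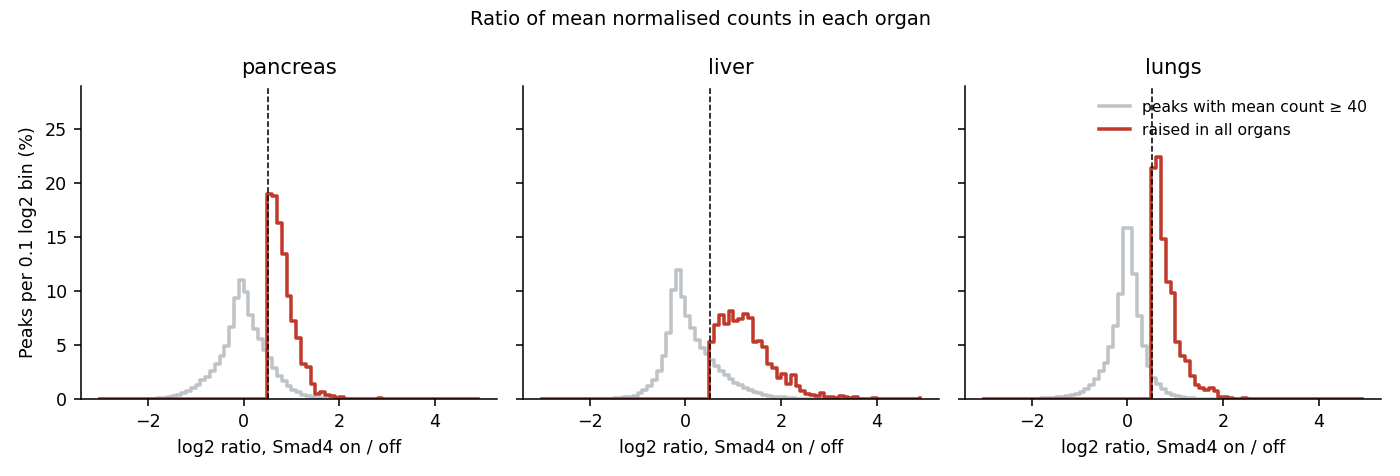
Distribution of the log2 ratio of mean normalised counts, Smad4 on over Smad4 off, in each organ for the raised peaks (red) and for all 82067 peaks with a mean count of at least 40 (grey), in percent of peaks per 0.1 log2 bin, with the chosen ratio as a dashed line. The red curve begins at the line by construction and reaches farthest to the right in the liver, where its median ratio is 2.30.

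Replicates separated unevenly. Every Smad4 on sample lay above every Smad4 off sample at 620 raised peaks in the pancreas (54.4%, against 11.6% of the 82067 peaks), at 835 in the liver (73.3%, against 22.6%) and at 437 in the lungs (38.4%, against 6.56%). In all 3 organs together this held for 215 raised peaks (18.9%, against 0.821%). These counts rest on the values that chose the peaks, so nothing is read from them. The liver groups held 2 samples each and the others 3, and fewer samples separate more easily, so the organs are not ranked by them. The size of the set depended most on 2 Lung_OFF libraries. Without Lung_OFF_1, in which the median was highest, the rule gave 2650 peaks, and without Lung_OFF_2, in which it was lowest, it gave 672. Of the 1139 peaks, 111 met the rule whichever sample was left out, and 66 of those 111 had no overlap of replicates in any organ. None of the 111 was a promoter, but promoters made up only 1.05% of the 1139, so 111 peaks are too few to read this. Of the 111, 88 (79.3%) were called lower in the liver than in both other organs, against 73.9% of the 1139 and 24.8% of the 82067 peaks. Ratios of at least 2 everywhere were found at 19 (17.1%), against 3.78% of the 1139, which the choice by ratio makes likely. Just inside the rule, the smallest ratio was 1.43 in the pancreas at peaks near Dusp4, Pip4k2a and Itga5. Just outside, it rounded to 1.43 as well, in the pancreas at a Vps53 intron and in the lungs at peaks near Olfr161 and Gprc5b.

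Averaged over both Smad4 states, the raised peaks were less open in liver metastases than in tumours of the other organs. This organ difference compares other groups than the ratio that chose the peaks, although the minimum mean used the same samples. It was tested with limma over all 136630 nuclear peaks, where a call needs a log2 difference of at least 0.58 and a Benjamini-Hochberg adjusted p of at most 0.1. In the liver minus lungs comparison 878 raised peaks (77.1%) were called lower and 59 higher, against 29.1% lower and 23.5% higher over all nuclear peaks, and 29.1% and 21.1% over the 82067 peaks. In liver minus pancreas 971 (85.3%) were called lower and 44 higher, against 36.6% and 28.8% over all nuclear peaks, and 32.5% and 28.0% over the 82067. In lungs minus pancreas 396 (34.8%) were called lower and 43 higher (80 without Panc_ON_3, 25 without Panc_ON_1), against 16.5% and 13.1%, and 12.9% and 14.8%. The median log2 difference over the raised peaks was −1.48, −1.94 and −0.34 in these comparisons, against 0.04, 0.08 and 0.07 over the 82067 peaks.

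The liver lay below both other organs at 842 raised peaks (73.9%) by these calls, compared with 24.8% of the 82067 peaks, and above both at 39 (3.42%, compared with 19.0%). A peak that is high in 1 organ can pass the minimum mean through that organ alone. In the stricter of 2 checks added after the data were seen, 386 raised peaks reached a mean of 40 in every organ on its own. Of these, 273 (70.7%) were called lower in liver minus lungs, 292 (75.6%) in liver minus pancreas and 98 (25.4%) in lungs minus pancreas, against 21.8%, 22.3% and 7.02% of the 60426 peaks that did so over the whole table. In the other, which asked for a mean of 40 without the samples of either organ compared, 814 of 1035, 711 of 838 and 210 of 827 were called lower (78.6%, 84.8% and 25.4%), against 29.3%, 29.5% and 8.38% of all such peaks. At 273 of the 1139 raised peaks the 3 organs were ordered, with liver below lungs and lungs below pancreas. The same order held at 4598 of the 82067 peaks. By mean level, the pancreas was highest at 749 raised peaks (65.8%), the lungs at 322 (28.3%) and the liver at 68 (5.97%). Over the 82067 peaks these shares were 30.4%, 24.0% and 45.6%. Even with Smad4 on, the liver mean stayed under the Smad4 off mean of the pancreas at 927 raised peaks (81.4%) and under that of the lungs at 779 (68.4%). No share over the 82067 peaks was counted for this last comparison. The lowered peaks were placed the other way. In liver minus lungs 681 of the 1012 were called higher and 74 lower, in liver minus pancreas 802 higher and 57 lower, and in lungs minus pancreas 432 higher and 26 lower, with median log2 differences of 1.10, 1.58 and 0.53. Since a ratio depends on the starting level, an organ level is not wholly free of the rule, and both sets share all samples.

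**Figure D3:**
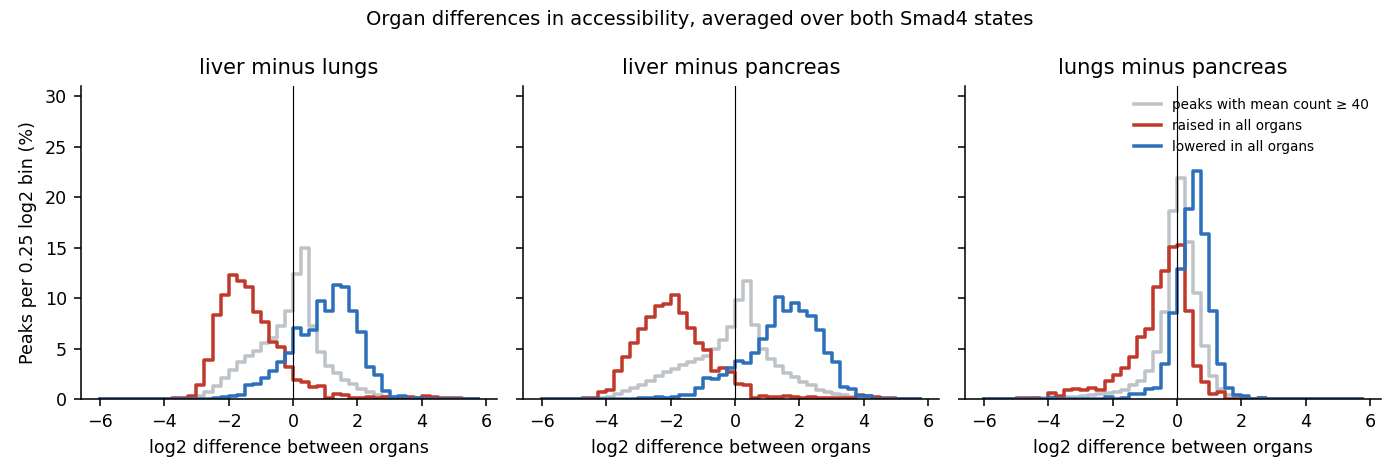
Distribution of the log2 organ difference from limma, averaged over both Smad4 states, for the raised peaks (red), the lowered peaks (blue) and the 82067 peaks with a mean count of at least 40 (grey), in percent of peaks per 0.25 log2 bin. The raised peaks have medians of −1.48 (liver minus lungs) and −1.94 (liver minus pancreas), and the lowered peaks have 1.10 and 1.58.

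Marker genes of the cell types that a sample could hold were read at their promoters. The 7 promoters read for the ductal and epithelial tumour list (Epcam, Krt7, Krt8, Krt18, Krt19, Cdh1, Sox9) were open. Their summed normalised count ranged from 20828 to 23807 in Panc_OFF, 15844 to 19458 in Panc_ON, 48532 to 48672 in Liv_OFF, 36954 to 46341 in Liv_ON, 22361 to 32327 in Lung_OFF and 25651 to 28062 in Lung_ON, highest in the liver where the raised peaks were lowest. For 8 of 10 fibroblast and pericyte genes (not Thy1 or Rgs5) the sum ranged from 3155 to 3968 in Panc_OFF, 2939 to 5025 in Panc_ON, 1590 to 1618 in Liv_OFF, 1485 to 1829 in Liv_ON, 1774 to 2610 in Lung_OFF and 1879 to 2042 in Lung_ON. This sum had the same organ order as the raised peaks, and its part in the organ difference was not tested. It rested mainly on Col1a1 (mean count 1134) and Pdgfra (884), while the other promoters had means from 24.9 (Col1a2) to 276 (Pdgfrb). Col1a1 is also the locus that carries the shRNA in the tumour cells. So the order is that of the sum and is not shown for each gene. The defining immune markers Ptprc, Adgre1, Cd3e and Cd79a and the hepatocyte markers Alb and Apoa1 had no promoter peak. For the 4 immune promoters that had a peak (Cd68, Csf1r, Cd14, Laptm5) the sums ran from 1396 to 1718 in the pancreas groups, 1930 to 2122 in the liver groups and 1770 to 2121 in the lung groups. The 5 endothelial promoters summed to at most 273 in every sample outside Lung_OFF, where the sums ran from 190.4 to 900.2. The hepatocyte list had only Ttr, from 164 to 242 in the liver groups and from 20.4 to 96.7 elsewhere. The 3 open lung epithelium promoters (Sftpd, Ager, Foxj1) summed to between 1337 and 2001 in the liver groups and between 670 and 1086 elsewhere.

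Raised peaks were distal. Of the 1139, 617 (54.2%) were intergenic, 494 (43.4%) intronic, 16 (1.40%) exonic and 12 (1.05%) within 1000 bp of a protein-coding start site, whereas 16.5% of the 82067 peaks and 6.42% of the lowered peaks were promoters. The median distance to the nearest protein-coding start was 47.5 kb, compared with 20.3 kb over the 82067 peaks and 20.5 kb over the lowered peaks. For 370 raised peaks (32.5%) no start lay within 100 kb, compared with 16.1% and 15.5%. Peaks that were lower in the liver than in both other organs had a median distance of 41.8 kb and a promoter share of 3.12%, between the 82067 peaks and the raised peaks. Raised peaks were also narrower, with a median width of 729 bp against 911 bp, had a median GC content of 43.9% against 47.2%, and a median normalised count of 74.7 against 139.

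The AP-1 string was the most frequent of the 7-letter strings searched in the raised peaks. TGAGTCA or its reverse complement stood in the central 200 bases of 405 raised peaks (35.6%), compared with 19.6% of the 82067 peaks, 22.9% of the intronic and intergenic ones and 6.52% of the lowered peaks. Among the 20350 peaks called lower in the liver than in both other organs (liver-low peaks) it was 33.2%, so the share in the raised peaks was close to that of other peaks with the same organ pattern. The core SMAD element CAGAC stood in 541 raised peaks (47.5%), compared with 40.2% of the 82067 peaks, 42.6% of the liver-low ones and 35.7% of the lowered peaks, and at least 2 copies stood in 15.7% against 10.3%, 11.4% and 8.0%. A palindrome of the element, GTCTAGAC, was found in 8 raised peaks (0.702%), in 0.200% of the 82067 peaks and in none of the lowered peaks. The RUNX string TGTGGT stood in 288 (25.3%), compared with 18.02%, 24.3% and 16.1%. AP-1 and SMAD letters occurred together in 212 raised peaks (18.6%), compared with 8.40% of the 82067 peaks, 14.9% of the liver-low ones and 2.47% of the lowered peaks, while 307 (26.95%) held none of the 3 strings. CAGAC is short and common, and no share was tested.

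Most strings of other families were less frequent than in the 82067 peaks. The GC-rich SMAD element GGCGC was found in 2.90% of the raised peaks against 14.0%, the E-box CAGGTG in 9.57% against 13.5%, the KLF string GGGTGTG in 3.42% against 6.12%, and the ETS string CCGGAAG in 0.439% against 2.17%. The HNF4 string CAAAGTCCA was found in 0.439% against 0.663%, and the CRE string TGACGTCA in 0.263% against 0.394%. Slightly more frequent in the raised peaks were the TEAD string GGAATG, at 14.8% against 13.4%, the letters AGATAA of GATA factors, at 13.6% against 10.5%, and the FOX string TGTTTAC, at 4.39% against 3.88%. Other comparison sets gave other gaps. Among the intronic and intergenic peaks TEAD (14.5%), FOX (4.36%) and CRE (0.269%) were close to the raised peaks, and GGCGC stood at 7.07%. Among the liver-low peaks the E-box (7.76%) and HNF4 (0.314%) were less frequent than in the raised peaks, and GGCGC stood at 4.86%. Against both sets KLF, ETS and GGCGC stayed less frequent in the raised peaks and GATA more frequent. In the lowered peaks the E-box, at 21.2%, was more frequent than AP-1. None of the strings contains another. Raised peaks with the AP-1 string had median ratios of 1.69 (pancreas), 2.26 (liver) and 1.65 (lungs). Those without it had 1.71, 2.33 and 1.68. Peaks with the RUNX string had a median liver ratio of 2.47 and those without it 2.24. Of the raised peaks with the RUNX string 80.6% were called lower in the liver than in both other organs, against 71.7% without it. The part of this difference in the liver ratios was not tested. The peaks were chosen by these ratios, so no link between a string and the size of the ratio is read from them.

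**Figure D4:**
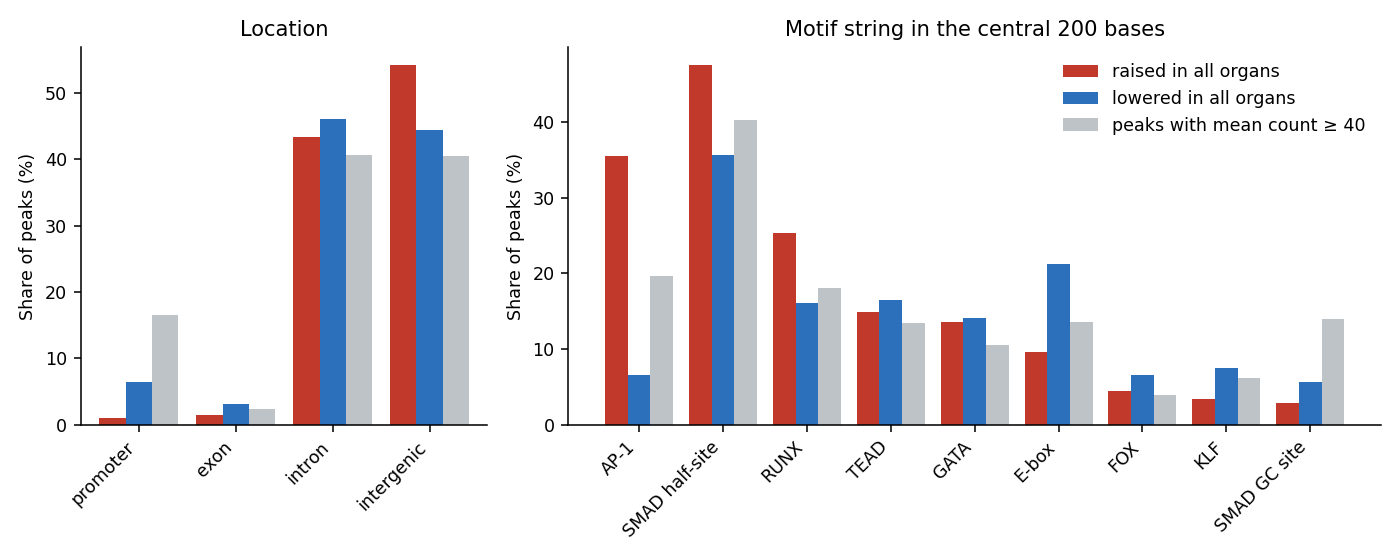
Share of peaks in percent by location (left) and holding each motif string on either strand in the central 200 bases (right), for the raised peaks (red), the lowered peaks (blue) and the 82067 peaks with a mean count of at least 40 (grey). Promoters make up 1.05% of the raised peaks against 16.5% of all, and the AP-1 string stands in 35.6% against 19.6%.

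The largest ratios that held in every organ without overlap of replicates lay away from promoters, in introns or between genes. At chr4:64952546-64953247, 171 kb from the start of Pappa (a metalloprotease that cleaves IGF binding proteins), the normalised counts were 29.9, 18.8 and 11.1 in Panc_OFF and 51.6, 85.4 and 113 in Panc_ON. They were 8.64 and 6.97 in Liv_OFF and 85.0 and 91.4 in Liv_ON, and 38.7, 35.9 and 40.5 in Lung_OFF and 111, 110 and 172 in Lung_ON. The ratios for pancreas, liver and lungs, the order kept below, were 4.19, 11.3 and 3.42, and with Smad4 on the liver samples came up to the range of the pancreas samples. Its liver minus pancreas difference over both states, −0.50 ± 0.28 (SE), was not called by limma (adjusted p = 0.117). The peak at chr5:37437185-37438066, 98.7 kb from Evc2 (a ciliary protein of Hedgehog signalling), had ratios of 3.10, 5.33 and 4.21, and its 2 Liv_ON samples differed, at 52.4 and 10.2. A second raised peak lay beside it, at chr5:37442777-37443757.

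The next of these sites were at chr11:99662341-99663510, 2.45 kb from the keratin-associated Krtap4-6 (ratios 2.74, 3.07 and 3.65), and in an intron of the RNA-binding protein gene Ralyl at chr3:13649845-13650459 (2.75, 3.43 and 2.66). Krtap4-6 belongs to a cluster of near-identical genes, in which reads may be shared. In an intron of Plxna4, a semaphorin receptor of axon guidance, the peak at chr6:32400127-32401075 had counts of 38.4, 67.9 and 23.2 in Panc_OFF and 70.2, 106.5 and 154 in Panc_ON, 7.41 and 16.7 in Liv_OFF and 25.6 and 37.6 in Liv_ON, and 33.1, 18.5 and 91.3 in Lung_OFF and 184, 259 and 106.4 in Lung_ON. The groups did not overlap in any organ, although Lung_OFF_3 came close to the lowest Lung_ON sample. Also intergenic were chr3:41213415-41213917 (130 kb from Pgrmc2, ratios 2.31, 3.94 and 2.89) and chr8:8190662-8191061 (470 kb from Efnb2, ratios 2.26, 4.83 and 2.49). Of these 7 sites, 6 had a mean of at least 40 without the lung samples as well, and all 6 were less open in the liver than in the lungs by limma, with log2 differences from −1.23 to −2.60 and adjusted p from 4.7e-05 to 0.00875. The first Evc2 site passed the minimum only through the lungs.

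Only 12 raised peaks were promoters, and the 5 with the largest smallest ratio did not share an organ pattern. The promoter of Tiam1, an exchange factor for the small GTPase RAC1, had counts of 29.9, 26.8 and 11.1 in Panc_OFF and 53.3, 80.5 and 86.6 in Panc_ON, 313 and 907 in Liv_OFF and 814 and 1152 in Liv_ON, and 42.3, 15.2 and 41.4 in Lung_OFF and 85.4, 80.5 and 23.3 in Lung_ON. It was far more open in the liver than in the lungs (log2 difference 4.12 ± 0.42 SE, limma adjusted p = 1.86e-06), and Smad4 states overlapped in liver and lungs. The Pde4b promoter, of a cyclic AMP phosphodiesterase, was likewise open mainly in the liver, with all pancreas and lung samples at or below 13.5 normalised counts. It passed the minimum mean only through the liver, so no test of its organ difference is given. The promoter region of Mustn1, a small nuclear protein of the musculoskeletal system, had the opposite pattern, with liver minus lungs at −1.93 ± 0.26 (limma adjusted p = 1.79e-05) and ratios of 1.77, 2.72 and 1.64. The Myo18a promoter, of an unconventional myosin, had ratios of 1.59, 2.08 and 2.59. That of Hs3st3a1, a heparan sulfate sulfotransferase, had 2.78, 2.97 and 1.71, but 1 sample carried each mean, with Panc_ON at 308, 85.4 and 18.4 and Liv_ON at 143 and 13.2.

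**Figure D5:**
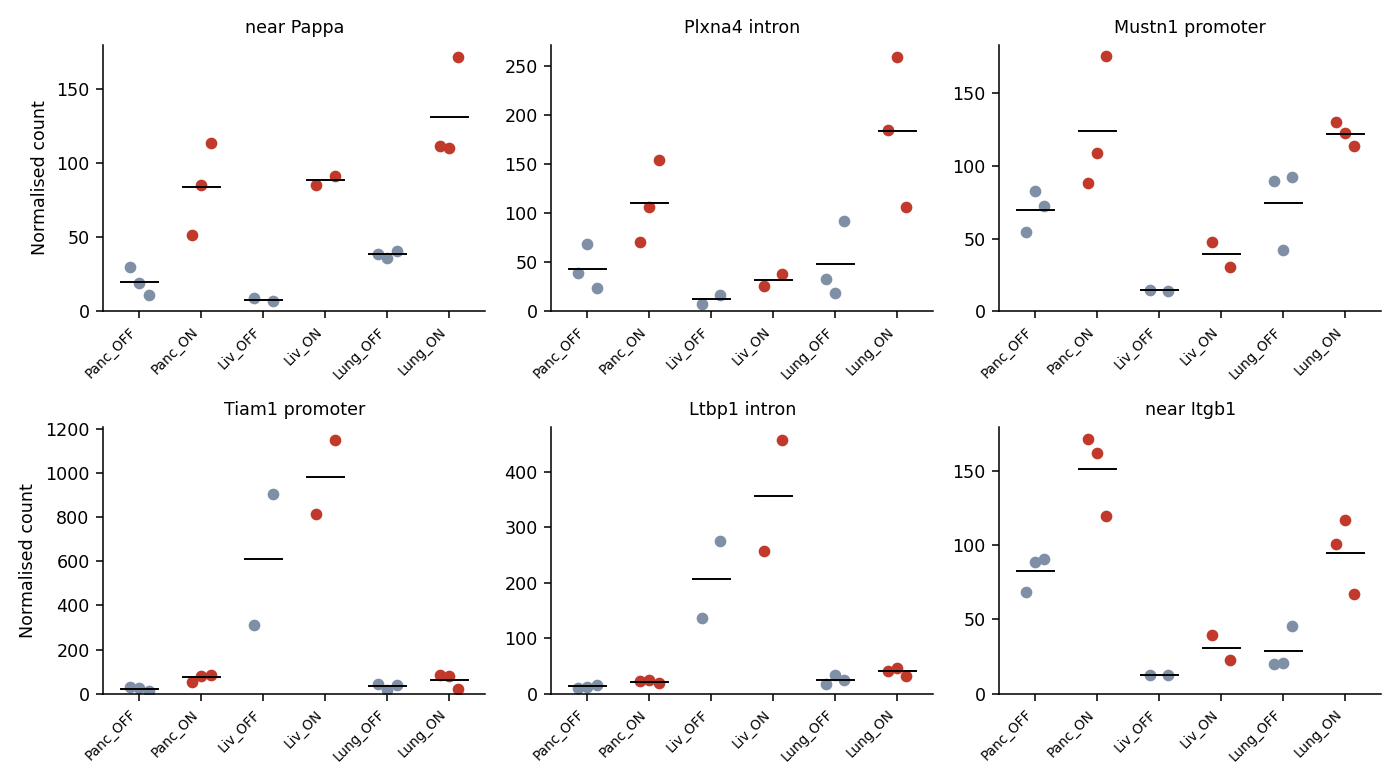
Normalised count of 6 raised peaks in every sample (points; Smad4 off grey, Smad4 on red) with the group mean as a line: the site 171 kb from Pappa, a Plxna4 intron, the Mustn1 and Tiam1 promoters, a Ltbp1 intron and a site 22.1 kb from Itgb1. The Tiam1 and Ltbp1 peaks are highest in the liver, whereas the 4 others are lowest in Liv_OFF.

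The raised peaks with the most signal were broad, with widths of 3068, 2669 and 4152 bp, where the median raised peak had 729 bp. The highest mean count, 821, was at chr15:34412116-34415183 in an intron of Matn2, which encodes the matrix protein matrilin-2, with counts from 901 to 1220 in Panc_OFF and from 1109 to 1861 in Panc_ON and ratios of 1.52, 2.57 and 1.47. The second, 811, was intergenic at chr6:118365782-118368450, 51.0 kb from Bms1, with ratios of 1.67, 3.46 and 1.94. The third, 734, was in an intron of Iqgap1, a scaffold of actin and small GTPases, at chr7:80742027-80746178, with ratios of 1.44, 1.87 and 1.49. At the Matn2 and Iqgap1 peaks all 3 organ differences were called, with liver lowest and pancreas highest.

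Assigned to the nearest start within 100 kb, 769 raised peaks fell to 656 genes, of which 88 had at least 2 and 20 at least 3. Of the 656, 29 also had a lowered peak, and the share over all genes was not counted. The nearest gene is a label of position and not shown to be the target. With 4 each came Rbfox1 (a splicing factor), Dynlrb2 (a dynein light chain), Sytl2 (a vesicle trafficking protein), Stard13 (a GTPase activating protein) and Mgll (monoglyceride lipase). At Mgll the 4 raised peaks were all of its peaks with sufficient signal, and they stood within 12.8 kb at chr6:88762741-88775578, with liver ratios of 2.11 to 3.70. At Stard13 4 of 30 were raised. Genes with 3 each were ranked by the smallest ratio over the organs at their best peak. First came Plxna4, Adarb1 (an RNA-editing adenosine deaminase) and Cyp26b1, which degrades retinoic acid. In single organs other genes with 3 had larger ratios, such as Adam12 with up to 6.47 in the liver. The Adarb1 peaks had liver ratios of 4.82 to 5.22, and the strongest, at chr10:77419302-77420874 and 1.03 kb from the start, had counts of 35.8 and 27.9 in Liv_OFF and 200.3 and 107.7 in Liv_ON. Its pancreas samples ran from 266 to 364 with Smad4 off and from 507 to 772 with Smad4 on, and the liver stayed below them in both states.

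Some raised peaks lay near each other along the chromosomes. With gaps of up to 100 kb, 378 (33.2%) stood in 156 runs of at least 2, and 63 in 14 runs of at least 4. Runs were not counted for the lowered peaks or for other sets of peaks, so no tendency to cluster is read from these counts. The runs with the most raised peaks were in Sema5a, a semaphorin, at chr15:32243875-32434044, where 6 of 8 peaks with sufficient signal were raised, and in Csgalnact1, which starts chondroitin sulfate chains, at chr8:68596799-68718164, with 6 of 7. Median ratios were 1.58, 4.35 and 2.49 over the Sema5a run and 1.90, 3.45 and 1.67 over the Csgalnact1 run. A Csgalnact1 intron peak at chr8:68644029-68646362 was among the raised peaks with the smallest p in both liver comparisons, with log2 differences of −2.32 ± 0.16 (SE) to the lungs and −2.24 ± 0.16 to the pancreas (limma adjusted p = 2.11e-07 and 5.6e-08). Runs of 5 lay near Il22 and Mdm1 on chromosome 10, in Chchd3 beside Plxna4 on chromosome 6 and in Insc beside Calcb on chromosome 7. By chromosome, the share of peaks with sufficient signal that were raised was highest on chromosome 15 (84 of 3475, 2.42%) and lowest on chromosome 4 (39 of 4945, 0.789%), apart from Y with none of 18. On the distal part of chromosome 6 the median log2 level of peaks against the rest of the genome was 1.44 in Lung_OFF_1 and between −0.69 and 0.34 in the other samples. There 2 of 1183 peaks were raised, and the rule gave 1137 peaks without the region.

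Genes of the SMAD pathway held raised peaks at about the share of all peaks. The list of 37 SMAD feedback and pathway genes had 347 peaks with sufficient signal, of which 6 were raised (1.73%, against 1.39% over the 82067) and 6 lowered. The raised ones were 3 at Ltbp1, which stores latent TGF-beta in the matrix, 2 at the inhibitory Smad7 and 1 at Inhba, an activin subunit. Smad7 also had a lowered peak. The intronic Ltbp1 peak at chr17:75046646-75047406 had counts of 11.1, 12.5 and 15.7 in Panc_OFF and 22.2, 24.8 and 18.4 in Panc_ON, 137 and 276 in Liv_OFF and 256 and 458 in Liv_ON, and 16.6, 33.7 and 25.0 in Lung_OFF and 41.6, 46.0 and 32.7 in Lung_ON. It was most open in the liver, and it passed the minimum mean only through the liver. Its Smad4 states overlapped in liver and lungs. Another Ltbp1 intron peak, at chr17:75202360-75203040, was called lower in the liver, at −0.80 ± 0.25 to the lungs (limma adjusted p = 0.011). The Inhba peak, at chr13:15913850-15915983 and 95.9 kb from the start, had ratios of 1.58, 2.21 and 1.77.

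Of 26 known TGF-beta target genes with 241 peaks, 10 peaks at 7 genes were raised (4.15%, against 1.39% over the 82067 peaks). At Ccn1, 1 peak was lowered (0.415%, against 1.23%). The genes with raised peaks were Ccn4, Itga5, Ccbe1, Nedd9, Snai1, Ccn1 and Pthlh. The counts are small and were not tested. Itga5 and Ccbe1 are also among the genes that the study reported as induced by Smad4 in liver and lung metastases, so the list overlaps with its findings. Near Ccn4, a matricellular protein, the peak at chr15:66869497-66870032 had ratios of 1.90, 6.34 and 2.18. Near Itga5, the fibronectin receptor subunit, the peak at chr15:103393061-103394150 had counts of 255, 302 and 297 in Panc_OFF and 659, 556 and 406 in Panc_ON, 33.3 and 15.3 in Liv_OFF and 76.9 and 49.8 in Liv_ON, and 170, 51.1 and 152 in Lung_OFF and 225, 228 and 168 in Lung_ON. It descended from pancreas to lungs to liver, with all 3 organ differences called and liver minus pancreas at −3.33 ± 0.30 (SE; limma adjusted p = 2.26e-07). Near Pthlh, parathyroid hormone-like hormone, the peak at chr6:147241336-147242866 lies in the distal chromosome 6 region, and its lung values were 333, 109.8 and 57.7 with Smad4 off and 559, 139.9 and 107.3 with Smad4 on, so Lung_OFF_1 and Lung_ON_1 carried the lung means. The peak 12.2 kb from Snai1, an EMT transcription factor, at chr2:167550364-167550781 had ratios of 1.45, 3.68 and 1.46.

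Of 30 extracellular matrix genes, 29 had in all 286 peaks. Of these peaks, 6 were raised (2.10%, against 1.39% over the 82067 peaks) and none was lowered (against 1.23%). The raised ones lay at Adamts1, Fn1, Tnc, Col3a1, Col6a2 and Lamb3. At Fn1 (fibronectin, chr1:71680011-71680887) the ratios were 1.61, 4.31 and 1.65, at Tnc (tenascin C, chr4:64093981-64094656) 2.11, 1.74 and 1.59, and at Adamts1 (a matrix protease, chr16:85826084-85827600) 1.65, 1.96 and 1.78. Of 212 peaks at integrin and adhesion genes 4 were raised (1.89%), 3 at Itgb1 and 1 at Itgb8, and none was lowered. Such counts are too small to place either list against the shares over all peaks. The site 22.1 kb from Itgb1 at chr8:128663070-128663579 had counts of 68.3, 88.4 and 90.8 in Panc_OFF and 172, 162 and 119.6 in Panc_ON, 12.3 and 12.5 in Liv_OFF and 39.6 and 22.3 in Liv_ON, and 20.3, 20.6 and 45.7 in Lung_OFF and 101, 117 and 67.2 in Lung_ON. Replicates did not overlap in any organ there. The Itgb8 peak, at chr12:119264849-119265490, had counts from 32.2 to 102 in every sample and no called organ difference, with liver minus lungs at 0.05 ± 0.23 (limma adjusted p = 0.871).

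The lists of cell state held 0 or 1 raised peaks each, where 1.39% of the 82067 peaks were raised, and such counts are too small to place a list against that share. There was 1 of 132 peaks at EMT genes (0.758%, Snai1), none of 122 at epithelial genes, 1 of 78 at AP-1 subunit genes (1.28%, Jun, chr4:95035309-95035959, ratios 1.49, 2.68 and 1.49), and 1 of 210 at RUNX and KLF genes (0.476%, a Runx1 intron, chr16:92777796-92779202). There was 1 of 141 at endoderm and pancreatic factors (0.709%, Onecut1), 1 of 266 at Wnt and Notch genes (0.376%, Jag1) and none of 145 at YAP and actin targets. At Runx1 the counts were 422, 554 and 489 in Panc_OFF and 793, 739 and 592 in Panc_ON, 67.9 and 55.7 in Liv_OFF and 192 and 123 in Liv_ON, and 328, 159 and 324 in Lung_OFF and 430.1, 420 and 321 in Lung_ON. In the lungs, Lung_ON_3 lay under 2 of the 3 Lung_OFF samples. Among the marker lists, 1 fibroblast peak (Col3a1 intron, chr1:45315706-45316648) and 1 endothelial peak (Erg intron, chr16:95440270-95441688) were raised, and none at immune, hepatocyte, lung epithelium or tumour cell genes. Lowered peaks lay at Elf3 and Ovol2 among the epithelial genes, and at Gata4 and Sox17, among others, in the list of endoderm factors.

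The organ calls of smallest p included sites with other organ orders. A Nectin1 intron, in an adhesion protein gene, at chr9:43772987-43773957 stood at 164 and 468 in Liv_OFF and 427 and 530.1 in Liv_ON, and at most 33.4 in any pancreas or lung sample, and passed the minimum mean only through the liver. In the other direction, beside Csgalnact1, the liver minus lungs difference of smallest p was at a site 76.5 kb from Rdh10, a retinol dehydrogenase, at chr1:16182273-16183221 (−1.91 ± 0.15, limma adjusted p = 3.56e-07). In liver minus pancreas the smallest p among the lower calls was at an intron of Asb5 at chr8:54546579-54548905, at −2.78 ± 0.19 (limma adjusted p = 5.18e-08). In lungs minus pancreas the second Evc2 site was higher in the lungs (1.45 ± 0.25, limma adjusted p = 0.000472). Some peaks passed the minimum mean through 1 organ only and have no test: an Ofcc1 intron at chr13:40114295-40115987 through the lungs, and a site near Lpcat1 at chr13:73431404-73431982 and an Insc intron at chr7:114773690-114774330 through the pancreas. The Insc peak was open almost only in the pancreas, with every liver and lung sample at or below 15.1.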

How the data were processed

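ATAC-seq of 16 samples was analysed, grouped by organ and Smad4 state from the sample titles. The authors deposited 1 table of coverage signal, in which each value is a read count of a peak after scaling to sequencing depth. According to the labels and methods, Trim Galore and cutadapt were used for trimming, Bowtie2 for alignment to mm10, MACS2 for peak calling and featureCounts for counting in peaks merged within 500 bp, and size factors came from DESeq2. Peaks were kept by their p-value and outside blacklisted regions. The table is named as filtered, without saying whether that is the filter meant, and a shift of read ends or removal of duplicates is not given in the sources used here. Dividing by 1 step per sample gave whole reads for 100% of values (tolerance 0.01). The mitochondrial row (1.43% to 3.56% of reads) was left out. Column names give day 15 for the lungs where the labels give 14 days.

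Coordinates are as the table gives them (mm10). Peaks were assigned to the nearest protein-coding start in GENCODE vM21 (basic) within 100 kb, with promoters within 1000 bp, and sequence was read from RefSeq GRCm38.p6, whose chromosome lengths hold every peak. Motif strings were searched on both strands in the central 200 bases. Organ differences, averaged over Smad4 states, were fitted in limma 3.58.1 (R 4.3.3) on log2(value + 1) over all nuclear peaks and 6 groups, so fold changes of low peaks are understated. Benjamini-Hochberg adjustment ran over all 136630 peaks. The fit was tested on simulated data. edgeR 4.0.16 and DESeq2 1.42.0 on recovered reads were alternatives.

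Named peaks were those with the highest smallest ratio among members without overlap of replicates (8, 1 per nearest gene), among promoters (5) and within each gene list (up to 3), the 3 with the highest mean, the 8 genes with most members, the 3 nearest the limit on each side, and the 2 of smallest p per organ comparison and direction. Members and lists were chosen with earlier results of these data known. Intervals between samples cover the spread between mice, each column being a separate mouse. Some alleles, 1 named peak, 1 marker gene and 1 motif string are not reported here.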

Additional observations from a re-analysis of the deposited data

How the results depend on the processing

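The number of raised peaks followed the chosen limits. It was 2506 at a ratio of 1.3 and 427 at 1.6, 1914 with the minimum mean count halved and 520 with it doubled. Leaving out 1 sample gave 672 (Lung_OFF_2) to 2650 (Lung_OFF_1) peaks. Scaling moved it less, to 1069 with TMM factors, 1111 with quantile normalisation and 1061 after GC correction, and 1040, 957 and 936 of the 1139 peaks were kept. The median of replicates gave 1523 peaks and kept 719. The geometric mean of value + 1 gave 1273 and kept 931. Over 27 alternatives the members called lower numbered 770 to 901 in liver minus lungs, 904 to 987 in liver minus pancreas and 258 to 447 in lungs minus pancreas, where 258 came from limits of 1 (log2) and 0.05 (adjusted p) and moved by over 1.5 times. Those called higher numbered 45 to 69, 40 to 52 and 13 to 80, where the 43 of lungs minus pancreas became 80 without Panc_ON_3, 25 without Panc_ON_1 and 13 at the stricter limits. Among the 386 members with the minimum mean in every organ 273, 292 and 98 were called lower, and among those with it without either organ compared 814, 711 and 210. Both of these alternatives were chosen after seeing the data. Replicate numbers were not taken to pair the samples, which came from different mice. The correlation of same-numbered deviations between organs ran from −0.22 to 0.54. It was not examined within an organ, so a pairing is not excluded. With the number as a block the members called lower were 879, 964 and 399, and with GC correction as well 837, 950 and 413. For the ratio rule the block equals the geometric mean, since both Smad4 groups of an organ carry the same numbers. Groups of 2 or 3 samples limit each single peak.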
